A study of Homo sapiens with 24 samples.

Results

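Matrix proteases and their inhibitors were described in U87 MG cells, an established human glioblastoma line, by every gene spot of the arrays named MMP1, MMP2, MMP3, MMP9, MMP14, TIMP1, TIMP2, TIMP3 or PLAU. These 9 genes are 9 of 30982 gene names on the array and were represented by 12 probes in 48 spots. The 4 configurations were hybridized on Agilent 2-colour whole genome arrays. For proton therapy (PT) alone, RNA of cells 24 h after 2 Gy (U87 2 Gy) or 10 Gy (U87 10 Gy) of protons was set against RNA of untreated cells. For the combined treatments, RNA of cells given 10 µM Si306, an inhibitor of SRC family kinases, together with 2 Gy (U87 Si306 + 2 Gy) or 10 Gy (U87 Si306 + 10 Gy) was set against RNA of cells given PT alone at that dose. The treated RNA carried Cy5 and the control RNA Cy3 on every array, with no dye swap, so that a dye effect of a probe and its response to treatment cannot be told apart within a configuration.

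Matrix metalloproteinases (MMPs) are zinc enzymes that cleave collagens and other proteins of the extracellular matrix. They are made as inactive precursors, some are anchored in the cell membrane, and tissue inhibitors of metalloproteinases (TIMPs) block their active site. Urokinase, the product of PLAU, turns plasminogen into plasmin, a protease that degrades fibrin and can activate MMP precursors. Glioblastoma cells are known to use these enzymes when they invade brain tissue.

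The probes are what the values below stand on, and the first 30 of the 60 bases of 6 of them are shown because the results turn on these genes. They are written 5′ to 3′ as the array design lists them, with hg17 positions.
MMP1, chr11:102165907-102165966, minus strand: acatgtgcagtcactggtgtcaccctggat
MMP2, chr16:54096763-54096822, plus strand: ttcttcaagggtgcctattacctgaagctg
MMP3, chr11:102211904-102211963, minus strand: tgactcgagtcacactcaagggaacttgag
MMP14, chr14:22385631-22385690, plus strand: ggactgccaagccaccctaagaccttggga
TIMP3, chr22:31583094-31583153, plus strand: caagatggcacccaagtgtttggcttctgg
PLAU, chr10:75347056-75347115, plus strand: ctgtgaccagcactgtctcagtttcacttt
The accession of each of these probes, and of those for MMP9, TIMP1 and TIMP2, is among the RefSeq transcripts of its symbol. An annotation of exons in hg17 was not used here. A second probe was listed for MMP1, TIMP2 and TIMP3. The second MMP1 probe lies at chr11:102208190-102208249 on the plus strand, opposite to the strand of the MMP1 probe. The second TIMP3 probe, at chr22:31534934-31534993, also lies on the other strand, and the second TIMP2 probe is described as similar to a testis-specific protein. None of the 3 has an accession among the transcripts of its symbol, and none was well above background on any of the 8 arrays in either dye. They were not tested, so that 9 of the 12 probes, 1 for each gene, gave a test.

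The 24 deposited tables, labelled as 6 replicates a configuration, hold 8 arrays scanned 3 times each, 4 on a slide for PT alone and 4 on a second slide for the combined treatments. Scans of 1 array differed by a median SD of 0.0748 across probes, scans of the 2 arrays of a configuration by 0.107 and scans of different configurations by 0.394, all on the log2 ratio. The scans of each array were averaged, which leaves n = 2 arrays for each configuration. A scan labelled U87 2 Gy and a scan labelled U87 10 Gy came from arrays of the other dose and were left out. Nothing in the labels settles whether the 2 arrays of a configuration carry RNA of separate cultures, so that p-values measure the spread between arrays, which may be technical. The number of arrays limits the precision. Vimentin (VIM), CD44, nestin (NES), tenascin C (TNC) and fibronectin (FN1), markers of this line, were above background on all 8 arrays in both dyes, while the leukocyte marker PTPRC was above it on none. The neuronal gene SYT1 was above it on all 8. After loess, the mean log2 ratios of the markers of the line lay between -0.71 (TNC in U87 10 Gy) and 0.43 (CD44 in U87 Si306 + 2 Gy). Those of SYT1 were -0.49, -0.39, 0.20 and 0.35 in the 4 configurations in the order above. CDKN2A, which U87 is known to have lost, was called above background on all 8 arrays. Its Cy3 mean signal lay between 184 and 413, against 63.6 to 77.4 for the median of the negative control spots. Its log2 ratio was -0.13 and 0.02 with PT alone, and 0.82 and 0.73 with Si306 (limma adjusted p = 5.59e-08 and 1.56e-07). As a check of irradiation, CDKN1A, a p53 target that stops the cell cycle, was higher in U87 2 Gy by 0.38 (log2) and in U87 10 Gy by 1.19 (limma adjusted p = 1.73e-06 and 3.02e-10). MDM2, another p53 target, was lower in U87 2 Gy (-0.21, adjusted p = 0.000992) and had 0.10 in U87 10 Gy (adjusted p = 0.0454).

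The 2 slides did not hold alike levels of several members in RNA that carries the same label. The Cy5 RNA of the first slide and the Cy3 RNA of the second are both labelled as PT alone. MMP3, stromelysin 1, had Cy5 mean signals of 21082 to 23796 on the 4 arrays of the first slide and Cy3 mean signals of 70 to 77 on the second, where it was not well above background in either dye on any of the 4 arrays. The untreated RNA of the first slide had Cy3 mean signals of 6904 to 9663 for MMP3. MMP2, gelatinase A, had 3092 to 3794 in the PT RNA of the first slide (Cy5) and 82 to 93 in that of the second (Cy3). MMP1, interstitial collagenase, had 7251 to 9171 and 617 to 706. PLAU was the brighter on the second slide, with 54887 to 76354 against 19226 to 23770. The untreated RNA of the first slide (Cy3) had 691 to 1013 for MMP2, 2595 to 4105 for MMP1 and 5908 to 8981 for PLAU. The ranges of the slides did not overlap for any of these 4 genes, whether the PT RNA or the untreated RNA of the first was taken. These signals are not scaled between arrays or dyes.

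After normalization between arrays, the PT RNA of the second slide (Cy3) minus that of the first (Cy5) was -2.39 for MMP1 and 3.35 for PLAU on the log2 scale (n = 4 arrays a slide). This sets Cy3 against Cy5. The Cy3 level of the second slide minus that of the first, which is PT RNA against untreated RNA, was -2.35 and 3.55. No size is given for MMP3 and MMP2, whose Cy3 signal on the second slide was not well above background and has only a limit there. For the other 5 members the difference between the PT RNAs lay between -1.28 (TIMP3) and 0.49 (MMP9). That between the Cy3 levels lay between -0.92 (TIMP1) and 0.58 (MMP9). A gap of 4-fold or more between the Cy3 levels was found for 4 of 9 members and for 7.15% of the tested probes. The endothelial marker PECAM1 was above background in Cy3 on 4 of 4 arrays of the second slide (334 to 389) and on 0 of 4 of the first (72.2 to 75.0), where Cy5 was above it on 0 of 4 as well. Markers of the line differed as well. The Cy3 mean signals, untreated RNA on the first slide and PT RNA on the second, of CD44 were 18531 to 28206 and 4025 to 4614. Those of TNC were 10180 to 14655 and 2186 to 2442, and those of NES 281 to 383 and 736 to 791, with no overlap, while the ranges of VIM and FN1 overlapped. The PT RNA of the first slide (Cy5) had 758 to 955 for NES, which overlaps with the PT RNA of the second. It had 50318 to 62495 for CD44, 17584 to 25430.5 for TNC, 190403 to 216670 for VIM and 31410 to 39522 for FN1, with no overlap, in signals not scaled between the dyes. On the first slide the defining endothelial marker CDH5 reached above background in Cy5 on 3 of 4 arrays, and it did so on 0 of 4 arrays of the second. No value here shows what lies behind the gap. Slide and RNA, the identity of the cells included, cannot be told apart. With CDKN2A above background on both slides, the name U87 is used here as the labels give it, and whether both slides hold RNA of the same line was not tested. Levels are therefore compared below only within an array.

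**Figure D1:**
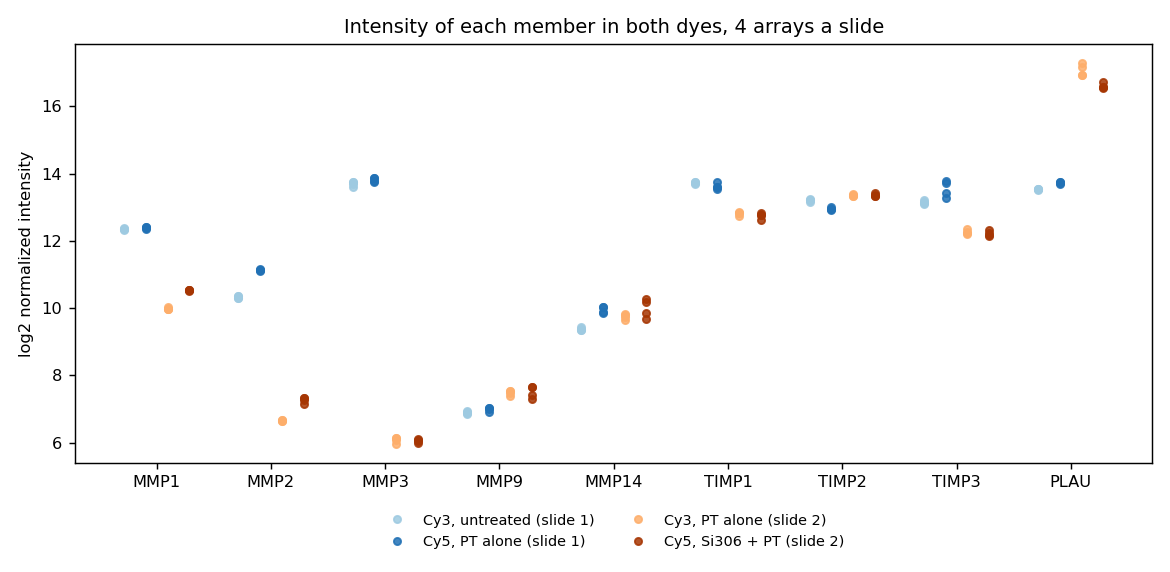
Normalized intensity (log2) of the tested probe of each member in Cy3 and Cy5. Each point is 1 array, with 4 arrays on the slide of PT alone (blue) and 4 on the slide of the combined treatments (orange and brown). MMP3 lies near 14 on the first slide and near 6, where it was not well above background, on the second in both dyes. The Cy3 level of PLAU is higher by 3.55 on the second slide, where Cy3 carries PT RNA and not untreated RNA.

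A log2 fold change is the mean over 2 arrays of the log2 ratio of Cy5 to Cy3, with the SE of limma's model on all 8 arrays and a p adjusted by Benjamini-Hochberg over all tested probes. A deregulated gene (DEG) had a change of at least 2-fold, the study's limit, and an adjusted p under 0.05, a limit set here. Ratios were normalized by loess within each scan, which removes a dye bias that varies with brightness. They were also scaled in 3 other ways, by the log ratio of the scanner software, by median centring and in a separate-channel model that takes the PT RNA of both slides as 1 group and so carries the gap between the slides. With median centring, the median of all tested probes lay at 0.24, 0.20, 0.34 and 0.20 in the 4 configurations in the order above, so values under median centring carry that shift. The RNA of all cells of a culture was pooled, so fewer cells that express a gene and less RNA of it per cell cannot be told apart.

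In U87 2 Gy, 8 of the 9 members had an adjusted p under 0.05, where 56.7% of all tested genes passed. Of these 8, 6 were higher than in untreated cells (31.9% of all genes) and 2 lower (24.8%). In U87 10 Gy, 7 members passed against 57.2% of all genes, 6 of them higher (31% of all genes) and 1 lower (26.2%). In U87 Si306 + 2 Gy 4 members passed against 66.3% of all genes, 2 higher (38.4%) and 2 lower (27.9%). In U87 Si306 + 10 Gy 5 passed against 61.7% of all genes, 4 higher (34.8%) and 1 lower (26.9%). With Si306 the higher members include MMP2, whose Cy3 signal was not well above background. The 9 members also include MMP3, which had neither dye above it there. No member was a DEG in limma in any configuration, where 0.724%, 0.964%, 0.746% and 0.371% of all genes were. None changed by 2-fold at an unadjusted p under 0.05 either, a p that 9, 7, 4 and 5 members passed without the limit on fold. Median centring, the separate-channel model and, with Si306, the scanner software's log ratio called between 1 and 5 member DEGs. The median absolute log2 fold change of the members was 0.20, 0.19, 0.06 and 0.15 in the 4 configurations, against 0.12, 0.13, 0.16 and 0.14 for all tested genes.

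**Figure D2:**
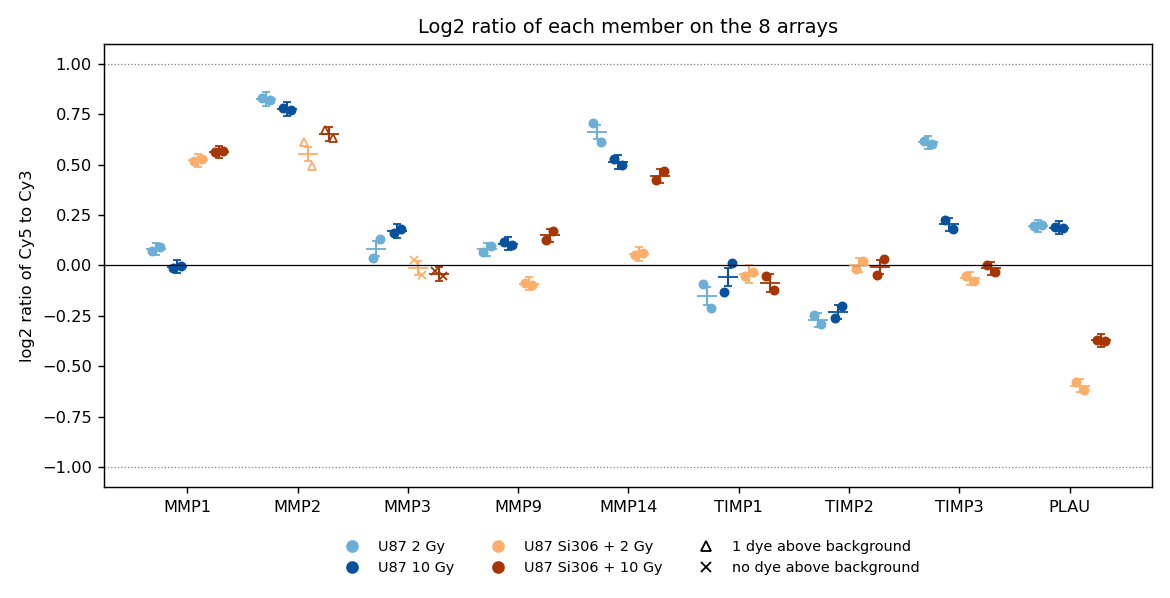
Log2 ratio of Cy5 to Cy3 of each member on the 8 arrays after loess. Points are arrays (n = 2 for each configuration), the horizontal marks and bars are the mean and SE of limma's model, open triangles and crosses mark arrays with 1 dye or no dye above background, and the dotted lines mark a 2-fold change. MMP2, MMP14 and TIMP3 lie highest with PT alone and PLAU lowest with Si306. The signs of MMP2 and TIMP3 turn in the separate-channel model, and that of PLAU with Si306 turns there and with median centring.

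By loess, MMP2 and MMP14 had the highest values of the members with PT alone. MMP2 cleaves type IV collagen of basement membranes, and MMP14, a membrane-type MMP, is known to activate the MMP2 precursor at the cell surface. The log2 ratio of MMP2 was 0.83 and 0.82 on the arrays of U87 2 Gy and 0.78 and 0.77 on those of U87 10 Gy. All 4 arrays lay close together, and MMP2 stood above 98.9% and 98.4% of the tested probes. Its fold change was 1.77 at 2 Gy (log2 0.83, SE 0.04, adjusted p = 2.18e-08) and 1.71 at 10 Gy (log2 0.78, SE 0.04, adjusted p = 2.44e-08), positive also with the scanner software's log ratio and median centring but -3.66 and -3.69 in the separate-channel model. Of the members, MMP2 alone was called by limma's treat against a change of 1.5-fold at either dose (adjusted p = 0.00186 and 0.00745).

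MMP14 had log2 ratios of 0.71 and 0.61 on the arrays of U87 2 Gy and 0.53 and 0.50 on those of U87 10 Gy. The arrays of both doses were high and those of 2 Gy the higher. The fold change was 1.58 at 2 Gy (log2 0.66, SE 0.04, adjusted p = 8.16e-08) and 1.43 at 10 Gy (log2 0.51, SE 0.04, adjusted p = 4.07e-07). It kept its sign under all 4 scalings. When Si306 was added, the log2 ratios of MMP14 were 0.05 and 0.06 in U87 Si306 + 2 Gy and 0.42 and 0.47 in U87 Si306 + 10 Gy. With Si306 at 2 Gy the fitted value of MMP14 was 0.06 (SE 0.04, adjusted p = 0.177), but -0.17 in the separate-channel model and 0.80 with median centring. At 10 Gy it rose with Si306 by 0.45 (SE 0.04, adjusted p = 1.35e-06), again with its sign kept under all 4 scalings. With the background model fitted on every spot, none of these 3 calls of MMP14 was made (0.36, 0.34 and 0.25, adjusted p = 0.112, 0.107 and 0.274). That fit placed the background up to 1286 from the negative controls, against 14.3 for the fit used here. The fit used here was chosen after this was seen.

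MMP2 with Si306 had only 1 dye above background. Its Cy5 mean signal was 269 and 185 on the arrays of U87 Si306 + 2 Gy and 165 and 166 on those of U87 Si306 + 10 Gy, and its Cy3 signal was not well above background on any of the 4. The change is therefore a bound that holds only for the background correction it was computed with. With the one used here, the floor was the Cy3 level of MMP2 itself, so the bound equals the fitted value and is no stricter. By it MMP2 was 1.47-fold higher with Si306 at 2 Gy (log2 0.55, adjusted p = 2.79e-07) and 1.57-fold higher at 10 Gy (log2 0.65, adjusted p = 1.22e-07), but lower in the separate-channel model (-3.93 and -3.82). A background model fitted on every spot gave 0.08 and 0.04, below these bounds and with no call (adjusted p = 0.594 and 1.00), and the scanner software's log ratio gave 1.59 and 1.98. Neither the size nor the call of MMP2 with Si306 is thus settled.

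MMP9, gelatinase B, was dim, with Cy3 mean signals of 99.5 to 139 over the 8 arrays, and its changes were small. Its log2 ratios were 0.07 and 0.10 in U87 2 Gy, 0.12 and 0.10 in U87 10 Gy, -0.09 and -0.10 in U87 Si306 + 2 Gy and 0.13 and 0.17 in U87 Si306 + 10 Gy. Only the arrays of U87 Si306 + 2 Gy were negative. The adjusted p passed in all 4 configurations (0.0484, 0.0130, 0.0263 and 0.00189), but the call of U87 2 Gy was lost without any 1 of the 8 arrays (adjusted p between 0.0566 and 0.249), and those of U87 10 Gy and U87 Si306 + 2 Gy without either of their own arrays (0.0669 and 0.102, and 0.111 and 0.153). That of U87 Si306 + 10 Gy was lost without its second array (0.0532). With the background model fitted on every spot no call of MMP9 was made (0.01, 0.06, -0.03 and 0.01, adjusted p = 1.00, 0.160, 0.703 and 1.00). The sign in U87 Si306 + 2 Gy turned with median centring (0.09) and by separate channels (0.40), while those of the other configurations were kept.

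MMP1, which cleaves fibrillar collagens, changed little with PT and rose with Si306. Its log2 ratios were 0.07 and 0.09 in U87 2 Gy and -0.01 and -0.00 in U87 10 Gy, against 0.52 and 0.53 in U87 Si306 + 2 Gy and 0.56 and 0.57 in U87 Si306 + 10 Gy. The ratios of the 4 arrays with Si306 lay apart from those of the 4 of PT alone, which have another control RNA and lie on the other slide. The fold change with Si306 was 1.44 at 2 Gy (log2 0.52, SE 0.03, adjusted p = 1.39e-07) and 1.48 at 10 Gy (log2 0.56, SE 0.03, adjusted p = 1.14e-07), against negative values in the separate-channel model (-1.87 and -1.82). The rise of 0.08 in U87 2 Gy (adjusted p = 0.0417) was lost when either of its own arrays (adjusted p = 0.106 and 0.207) or any 1 of the arrays of the second slide (0.0534 and 0.0633) was left out, was not called by the scanner software's log ratio (0.05, adjusted p = 0.119) or with the background model fitted on every spot (0.12, adjusted p = 0.0824), and was -2.32 in the separate-channel model.

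MMP3 degrades many matrix proteins and can activate the MMP1 precursor. With PT its log2 ratios were 0.04 and 0.13 at 2 Gy and 0.16 and 0.18 at 10 Gy. Its log2 fold change at 2 Gy was 0.08 (SE 0.04, adjusted p = 0.0666), and without 1 of the arrays of this dose the remaining one gave 0.13 (adjusted p = 0.0451). At 10 Gy it was 0.17 (adjusted p = 0.00178), but -7.57 in the separate-channel model, which draws on the second slide, where MMP3 was at background. With Si306 neither RNA was measured above background, so no change can be given for MMP3 there.

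With PT alone, TIMP3 rose at both doses, except in the separate-channel model, and TIMP1 and TIMP2 had negative values by loess. TIMP3, which is bound to the matrix and also blocks ADAM proteases, had log2 ratios of 0.62 and 0.60 in U87 2 Gy and 0.23 and 0.18 in U87 10 Gy. The fold change was 1.53 at 2 Gy (log2 0.61, SE 0.03, adjusted p = 7.75e-08) and 1.15 at 10 Gy (log2 0.21, SE 0.03, adjusted p = 0.00023), with both signs turned in the separate-channel model (-0.75 and -1.01). TIMP2, which inhibits MMP2 and takes part in its activation by MMP14, had -0.25 and -0.29 in U87 2 Gy and -0.26 and -0.20 in U87 10 Gy. All 4 ratios were negative, and TIMP2 fell by 0.27 at 2 Gy (SE 0.04, adjusted p = 6.53e-05) and by 0.23 at 10 Gy (adjusted p = 0.00019) on the log2 scale, although both values were positive with median centring (0.39 and 0.30) and by separate channels (0.14 and 0.16).

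TIMP1, a secreted inhibitor of most MMPs, had log2 ratios of -0.09 and -0.21 in U87 2 Gy and -0.13 and 0.01 in U87 10 Gy. At 2 Gy it had -0.15 (SE 0.04, adjusted p = 0.0122), but 0.53 with median centring, and the call was lost without the second array (-0.09, adjusted p = 0.216). At 10 Gy it was -0.06 (adjusted p = 0.275). When Si306 was added, no inhibitor passed the test at either dose by loess. The log2 fold changes of TIMP1 were -0.04 and -0.09, those of TIMP2 0.00 and -0.01, and those of TIMP3 -0.06 and -0.01 (SE 0.03 to 0.04, adjusted p between 0.101 and 0.975). The scanner software's log ratio called none of them either, but median centring and separate channels called all. With median centring the values of these inhibitors with Si306 lay between 0.59 and 1.09, and the separate-channel model gave -0.84 and -0.91 for TIMP1, 0.41 and 0.39 for TIMP2 and -1.39 and -1.26 for TIMP3.

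PLAU rose with PT and, by loess, had the lowest values of the members with Si306. Its log2 ratios were 0.19 and 0.20 in U87 2 Gy and 0.19 and 0.19 in U87 10 Gy. Its fold change was 1.15 at 2 Gy (log2 0.20, SE 0.03, adjusted p = 0.000279) and 1.14 at 10 Gy (log2 0.19, adjusted p = 0.000363), with the sign kept under all 4 scalings. With Si306 the ratios were -0.58 and -0.62 at 2 Gy and -0.37 and -0.38 at 10 Gy. The ratios of these 4 arrays did not overlap with those of PT alone, which have another control RNA and lie on the other slide. PLAU was 1.51-fold lower at 2 Gy (log2 -0.60, SE 0.03, adjusted p = 6.02e-08) and 1.29-fold lower at 10 Gy (log2 -0.37, SE 0.03, adjusted p = 2.2e-06) by loess. By the scanner software's log ratio it was lower by more (-0.87 and -0.56), but it was higher with median centring (0.86 and 0.63) and by separate channels (2.78 and 2.95). On these arrays the mean signals of PLAU were 152306 to 244672 in Cy5 and 54887 to 76354 in Cy3, and 0 of the 22 scans marked it as saturated. The direction of PLAU with Si306 thus differed between the scalings.

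**Figure D3:**
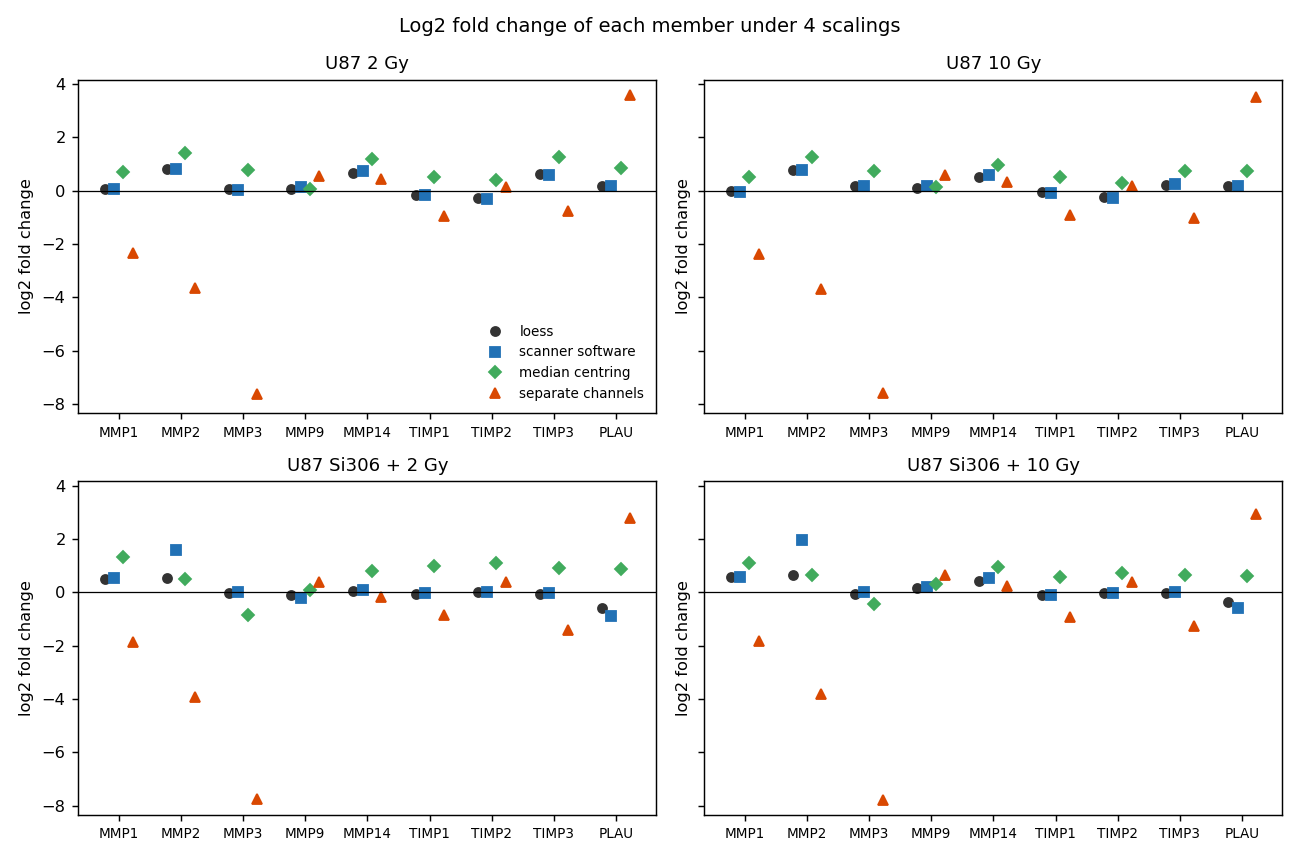
Log2 fold change of each member in the 4 configurations under 4 scalings: loess, the scanner software's log ratio, median centring and a separate-channel model. Each point is the estimate over the 2 arrays of a configuration. Loess and the scanner software give every called member the same sign and lie farthest apart for MMP2 with Si306 (0.55 and 0.65 against 1.59 and 1.98). The separate-channel values of MMP3 lie below -7 in every configuration, but rest on the second slide, where MMP3 was at background, and are no measured size.

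Doses were compared within each slide by a limma contrast of 10 Gy minus 2 Gy. With PT alone, 1 of 9 members differed, against 20.3% of all tested genes. It was lower at 10 Gy, as were 10.8% of all genes. TIMP3 was lower at 10 Gy than at 2 Gy by a log2 difference of -0.41 (SE 0.05, adjusted p = 0.000236), and the arrays of the doses did not overlap (0.60 and 0.62 against 0.18 and 0.23). This difference kept its sign and its call under all 4 scalings and with each array left out. Of the tested probes, 1.10% had a lower difference. For MMP14 the difference was -0.15 (95% interval -0.26 to -0.04, adjusted p = 0.0592), and it passed without the second array of U87 2 Gy (-0.20, adjusted p = 0.0384). The other 7 members had differences between -0.09 and 0.09, with 95% intervals that reached from -0.18 to 0.23.

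For the addition of Si306, 3 of 9 members differed between the doses, against 21.8% of all tested genes. All 3 were higher at 10 Gy, as were 9.77% of all genes. The log2 difference was 0.39 for MMP14 (SE 0.05, adjusted p = 0.000504), 0.24 for MMP9 (SE 0.05, adjusted p = 0.00436) and 0.22 for PLAU (SE 0.04, adjusted p = 0.00574), of which that of PLAU turned to -0.24 with median centring. For MMP14 it was 0.17 with median centring (adjusted p = 0.0690), and none of the 3 passed with the background model fitted on every spot (adjusted p between 0.249 and 1.00). MMP9 went from a negative to a positive value, and the fall of PLAU was the smaller at 10 Gy. For MMP1, TIMP1, TIMP2 and TIMP3 the differences lay between -0.04 and 0.05, within intervals from -0.18 to 0.15, by loess. With median centring they were -0.21, -0.40, -0.38 and -0.27 and were called (adjusted p = 0.0348, 0.000202, 0.000416 and 0.00843). MMP2 and MMP3 are not compared, since 1 dye or both were at background.

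**Figure D4:**
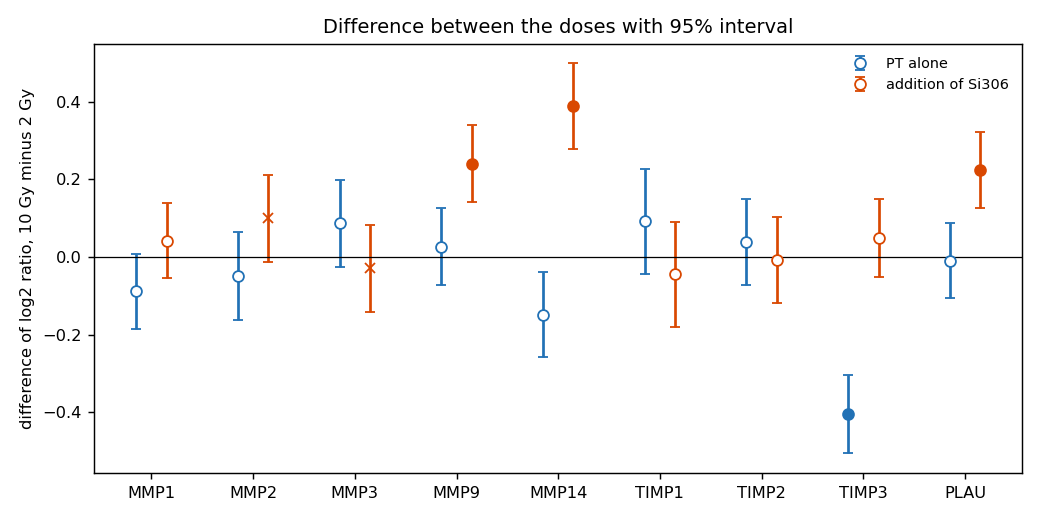
Log2 ratio at 10 Gy minus that at 2 Gy for each member, with PT alone (blue) and for the addition of Si306 (orange). Bars are 95% intervals of limma's model, filled circles mark an adjusted p under 0.05, and crosses mark genes with a dye at background. TIMP3 differs with PT alone (-0.41), and MMP9, MMP14 and PLAU with Si306 (0.24, 0.39 and 0.22, that of PLAU -0.24 with median centring).

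For the 3 members with the largest change, the genes of the most similar pattern were taken as those with the smallest root mean square difference of the log2 ratio over the 8 arrays. They were KITLG (0.0736), RRAD (0.102) and EFEMP2 (0.163) for MMP2, FLOT1 (0.108), KLHL3 (0.114) and ST6GALNAC6 (0.116) for MMP14, and JARID2 (0.0664), DDX27 (0.0678) and QTRT1 (0.0682) for TIMP3. The values of MMP2 include 4 arrays with Cy3 at background.

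Other genes of pericellular proteolysis were taken from a list of 58, of which 57 are on the array and 50 were tested. In U87 2 Gy 23 were higher and 7 lower at an adjusted p under 0.05, in U87 10 Gy 19 and 14, in U87 Si306 + 2 Gy 15 and 19, and in U87 Si306 + 10 Gy 15 and 15. Over all tested genes, 31.9% were higher and 24.8% lower in U87 2 Gy, 31% and 26.2% in U87 10 Gy, 38.4% and 27.9% in U87 Si306 + 2 Gy and 34.8% and 26.9% in U87 Si306 + 10 Gy. The medians of their log2 fold changes were 0.06, 0.05, -0.01 and 0.01. DEGs numbered 0, 1, 1 and 0 in limma, against 0.724%, 0.964%, 0.746% and 0.371% of all genes. Of the 12 tested MMPs beyond the members, 4, 8, 8 and 8 passed in the 4 configurations, where 56.7%, 57.2%, 66.3% and 61.7% of all genes did. Of the 9 tested genes of the plasminogen system, 6 rose and 1 fell in U87 2 Gy, 5 rose and 2 fell in U87 10 Gy, 1 rose and 5 fell in U87 Si306 + 2 Gy and 2 rose and 3 fell in U87 Si306 + 10 Gy, to be read against the shares over all genes just given.

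Within the plasminogen system, PLAUR, the urokinase receptor, had log2 ratios of -0.73 and -0.82 on the arrays of U87 Si306 + 2 Gy and -0.90 and -0.85 on those of U87 Si306 + 10 Gy. PLAUR fell with Si306 by 0.77 (SE 0.04, adjusted p = 7.24e-08) and by 0.87 (adjusted p = 5.09e-08) on the log2 scale, although the former value was 0.05 with median centring. With PT alone PLAUR had 0.19 (adjusted p = 0.00232) and 0.13 (adjusted p = 0.0178), but below 0 in the separate-channel model (-1.09 and -1.12). The former call was lost without the second array of U87 2 Gy (0.11, adjusted p = 0.0785) and the latter without either array of U87 10 Gy (adjusted p = 0.114 and 0.128). SERPINB2 (PAI-2) fell by 0.28 and by 0.27 with PT (adjusted p = 0.00011 and 0.000146), but had 0.01 and -0.02 with median centring (adjusted p = 0.877 and 0.727) and no dye above background on the second slide.

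ADAMTS1, a secreted protease that cleaves proteoglycans, was the DEG of both configurations that had 1. Its log2 fold change was -0.70 in U87 2 Gy (SE 0.04, adjusted p = 2.28e-07) and -1.04 in U87 10 Gy (SE 0.04, adjusted p = 1.24e-08). At 10 Gy it was no DEG with median centring (-0.48), the scanner software's log ratio (just short of 2-fold) or the mean over its probes (-0.89). In U87 Si306 + 2 Gy it was 1.81, from 1 array only, because every spot of the other was marked as an outlier. Its adjusted p of 4.39e-09 in limma and its place among the DEGs take the spread from the arrays of the other configurations, and no replicate of this value was measured. In U87 Si306 + 10 Gy ADAMTS1 had 0.95 (adjusted p = 4.27e-08), but 0.47 with the background model fitted on every spot (adjusted p = 0.00158). Its other tested probe had -0.46, -0.75, 1.97 and 1.00 in the 4 configurations, and the signs of ADAMTS1 were kept with the scanner software's log ratio and median centring, where U87 2 Gy had -0.01 (adjusted p = 0.864). ADAMTS4, a related protease, rose by 0.62 and 0.69 with PT (adjusted p = 6.26e-06 and 2.22e-06), but was below 0 in the separate-channel model (-1.45 and -1.41), and had no dye above background on the second slide.

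Among the ADAM sheddases, ADAM17, which releases cytokines and growth factors from the membrane, had -0.28 and -0.63 with PT (adjusted p = 2.66e-05 and 4.82e-08), the former positive with median centring (0.32) and by separate channels (0.21) and the latter -0.15 (adjusted p = 0.0219) and -0.04 (adjusted p = 0.607) there, and 0.58 and 0.90 with Si306 (adjusted p = 9.26e-08 and 9.62e-09). The other tested probe of ADAM17 lay between -0.07 and 0.01. ADAM19 had 0.34 and 0.12 with PT and -0.58 and -0.39 with Si306 (adjusted p between 3.02e-06 and 1.55e-07 with Si306), and ADAM8 had 0.23 and 0.32 with PT and -0.37 and -0.43 with Si306 (adjusted p = 1.94e-06 and 7.93e-07). The values of both with Si306 turned positive with median centring and by separate channels, and the value of 0.12 of ADAM19 in U87 10 Gy did not pass without either of its own arrays (adjusted p = 0.140 and 0.0529).

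Among the other named genes, FAP, a membrane protease of activated fibroblasts, rose by 0.89 and 0.60 with PT (adjusted p = 8.59e-09 and 1.06e-07), and CTSD, a lysosomal protease, by 0.75 and 0.83 (adjusted p = 1.38e-06 and 5.29e-07). Both genes were negative with PT in the separate-channel model. With Si306 FAP had -0.15 and -0.23 and CTSD -0.47 and -0.36, all 4 positive with median centring, and the -0.15 of FAP did not pass without the first array of U87 Si306 + 2 Gy (adjusted p = 0.0747). TFPI2, a Kunitz-type inhibitor that acts on plasmin, had -0.57 and -0.66 with PT (adjusted p = 1.5e-06 and 4.39e-07), but 0.19 and -0.04 after median centring (adjusted p = 0.00484 and 0.554), and 0.74 and 0.66 with Si306 (adjusted p = 1.91e-07 and 5.4e-07), both negative in the separate-channel model. TIMP4, the fourth inhibitor of the TIMP family, rose with Si306 by 0.58 and 0.61 (adjusted p = 1.58e-06 and 1.38e-06), but was below 0 in the separate-channel model (-1.42 and -1.42). MMP28 rose with Si306 by 0.58 and 0.85 (adjusted p = 2.08e-07 and 2.55e-08), with its sign kept under all 4 scalings, but its other tested probe had 0.07 and -0.00. The Cy5 signal of MMP13, collagenase 3, was above background on 1 of the 4 arrays with Si306, its Cy3 signal on all 4, and neither dye was on the first slide. Its ratio with Si306 therefore rests on a limit for Cy5, and it moved with the processing. It was -0.43 and -0.51 by loess (adjusted p = 1.3e-05 and 4.26e-06), -1.37 and -1.90 by the scanner software's log ratio, -0.05 and -0.03 with the background model fitted on every spot (adjusted p = 0.227 and 0.934) and positive in the separate-channel model (0.41 and 0.35).

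With that background model, 21 of 52 values of the named genes of the wider list lost their call. With PT these were both values of ADAM19 (0.08 and 0.07, the former with adjusted p = 0.360), ADAMTS4 (0.10 and 0.42, adjusted p = 1.00 and 0.133), MMP28 (0.02 and 0.07), PLAUR (0.23 and 0.16) and SERPINB2 (-0.05 and -0.18), and in U87 2 Gy those of ADAM17 (-0.15, adjusted p = 0.270) and CTSD (0.44, adjusted p = 0.0742). With Si306 they were both values of CTSD (-0.20 and -0.06, adjusted p = 0.362 and 1.00), FAP (-0.06 and -0.06, adjusted p = 0.232 and 0.331), MMP13 and MMP28 (0.13 and 0.08, adjusted p = 0.0923 and 0.434), and in U87 Si306 + 10 Gy that of TIMP4 (0.07, adjusted p = 0.467).

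**Figure D5:**
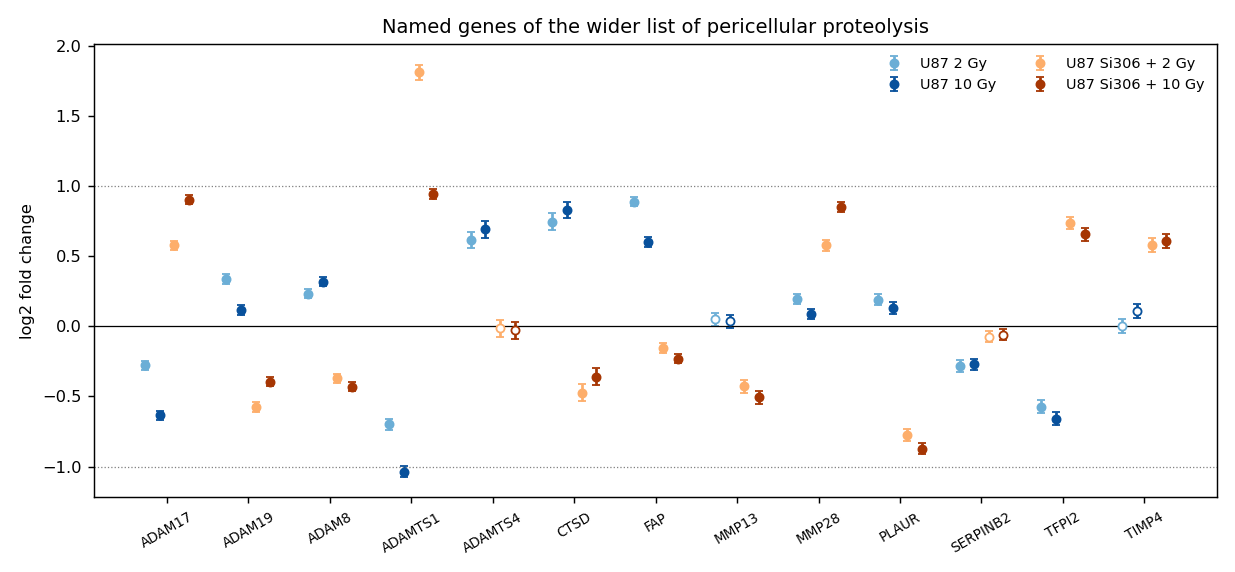
Log2 fold change (with SE) of 13 named genes of the wider list in the 4 configurations, after loess. Filled points have an adjusted p under 0.05 in limma, and dotted lines mark a 2-fold change. ADAMTS1 passes -1 in U87 10 Gy and reaches 1.81 in U87 Si306 + 2 Gy on 1 array, and ADAMTS4 and SERPINB2 had no dye above background with Si306, nor MMP13 with PT alone, and the points of MMP13 with Si306 rest on a Cy5 signal above background on 1 of 4 arrays. The signs of ADAM8, ADAM19, FAP and CTSD with Si306 turn with median centring, and those of FAP, CTSD, ADAMTS4 and PLAUR with PT in the separate-channel model.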

How the data were processed

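RNA of U87 cells was measured on 2-colour arrays. The deposited scanner tables, made by the authors with Agilent Feature Extraction 9.5.3.1, give mean signal intensity and local background for both dyes at 45015 spots, and a log10 ratio after the software's own correction. A deposited series matrix holds that log10 ratio rounded (largest difference 0.005, column medians at 0); scale and direction follow from this match. The tables use decimal commas.

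The intensities were corrected with normexp and an offset of 50, without control spots and without spots marked as outliers for signal or background (2.98% to 5.73% of the gene spots of a scan). This was chosen after seeing that normexp fitted on every spot placed the background up to 1286 from the negative controls, against 14.3 here. The log2 ratios of each scan were then normalized by loess and averaged over spots and scans. Of 41000 probes, 30418 were well above background in either dye on at least 2/3 of the arrays of a configuration. Linear models of the 8 arrays were made in R 4.3.3 by limma 3.58.1 (with statmod 1.5.0, and the package data.table at 1.17.8), with 4 residual degrees of freedom and 6.67 prior ones. Each gene was counted by its brightest probe. The tested probes of the members had 45% to 55% GC, and 4.83% of all tested probes had 60% or more.

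The members and lists were chosen with earlier results of these data known. Named genes are all members, DEGs of the wider list and its 3 highest and 3 lowest called genes in each configuration, of which 1 gene is not reported here. For a probe with 1 dye at background, a bound was taken after normalization between arrays (Aquantile). Data were also simulated from the fitted model, with normal errors, few changed probes and no dye or slide effect. Probes changed by 0.5 (log2) were recovered for 63 of 63, 49 of 49, 63 of 64 and 68 of 68 and those changed by 0.2 for 54 of 74, 58 of 79, 47 of 62 and 71 of 79 in the 4 configurations, among 30418 probes. False calls numbered 8, 11, 14 and 13. Such data cannot show how the test fares under a dye or slide effect. Alternatives were other background corrections, scalings and filters, other uses of scans, single arrays left out, other ways to summarise probes, and treat.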

Additional observations from a re-analysis of the deposited data

Results flagged for a closer look

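The results here differ between the doses in limma's contrast of 10 Gy minus 2 Gy (log2 differences, adjusted p over all tested probes), n = 2 arrays for each configuration. Among the members, these are TIMP3 with PT alone (-0.4058, adjusted p = 0.000236) and, for the addition of Si306, MMP14 (0.3893, adjusted p = 0.000504), MMP9 (0.241, adjusted p = 0.00436) and PLAU (0.2243, adjusted p = 0.00574), the last of them -0.24 with median centring. With the background model fitted on every spot, TIMP3 (adjusted p = 0.0212) and, in the wider list, ADAMTS1 for the addition of Si306 (adjusted p = 0.0162) passed, and the others given here did not (adjusted p between 0.0559 and 1.00).

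In the wider list, ADAM17 was lower at 10 Gy with PT alone (-0.3554, adjusted p = 0.000546) and higher for the addition of Si306 (0.3249, adjusted p = 0.00093). The latter was 0.02 with median centring (adjusted p = 0.816) and 0.12 over the mean of its probes (adjusted p = 0.0598). The same signs were found for ADAM19 (-0.2189, adjusted p = 0.0104, and 0.1817, adjusted p = 0.0241), the latter -0.17 with median centring. ADAM19 lost the former call without the first array of U87 2 Gy (-0.18, adjusted p = 0.0617) or the second of U87 10 Gy (-0.20, adjusted p = 0.0744). It lost the latter without the first array of U87 Si306 + 2 Gy or either of U87 Si306 + 10 Gy (adjusted p between 0.0970 and 0.138). ADAMTS1 was lower at 10 Gy in both (-0.336, adjusted p = 0.00226, and -0.8697, adjusted p = 2.92e-05), the latter with 1 array at 2 Gy, so that its spread is taken from the other configurations. FAP was lower with PT alone (-0.2885, adjusted p = 0.00236). For the addition of Si306, MMP28 was higher (0.2717, adjusted p = 0.0045), but -0.05 with the background model fitted on every spot and 0.10 over the mean of its probes (adjusted p = 0.149). Its other tested probe had 0.07 at 2 Gy and -0.00 at 10 Gy.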

How the results depend on the processing

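No called direction of a member or named gene turned without background correction, with the ratio of the scanner software or the series matrix, other filters, other uses of scans, single arrays left out and other summaries of probes. Median centring turned, on the log2 scale, the following values. In U87 2 Gy ADAM17 0.32, MMP13 -0.56, SERPINB2 0.010, TFPI2 0.19, TIMP1 0.53 and TIMP2 0.39. In U87 10 Gy MMP1 0.51, MMP13 -0.52, TIMP1 0.50 and TIMP2 0.30. In U87 Si306 + 2 Gy ADAM19 0.49, ADAM8 0.96, CTSD 0.042, FAP 0.53, MMP9 0.091, PLAU 0.86, PLAUR 0.054, TIMP1 0.99 and TIMP3 0.90. In U87 Si306 + 10 Gy ADAM19 0.32, ADAM8 0.49, CTSD 0.017, FAP 0.23, PLAU 0.63, TIMP1 0.59, TIMP2 0.72 and TIMP3 0.64. In the dose difference for the addition of Si306 ADAM19 -0.17, ADAMTS4 0.39, MMP1 -0.21, MMP3 0.42, PLAU -0.24 and TIMP3 -0.27. The values of MMP13 with PT alone and of ADAMTS4 and MMP3 in this dose difference come from probes with no dye above background and are no measured change.

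The separate-channel model takes the PT RNA of both slides as 1 group, so it carries the gap between the slides. It gave in U87 2 Gy ADAM17 0.21, ADAMTS4 -1.45, CTSD -1.07, FAP -2.15, MMP1 -2.32, MMP2 -3.66, MMP3 -7.64, PLAUR -1.09, TIMP2 0.14, TIMP3 -0.75 and TIMP4 -2.00. In U87 10 Gy ADAMTS4 -1.41, CTSD -1.01, FAP -2.37, MMP2 -3.69, MMP28 -0.021, MMP3 -7.57, PLAUR -1.12, TIMP2 0.16, TIMP3 -1.01 and TIMP4 -1.93. In U87 Si306 + 2 Gy ADAM19 4.57, ADAM8 3.60, MMP1 -1.87, MMP13 0.41, MMP14 -0.17, MMP2 -3.93, MMP9 0.40, PLAU 2.78, TFPI2 -2.76 and TIMP4 -1.42. In U87 Si306 + 10 Gy ADAM19 4.79, ADAM8 3.51, MMP1 -1.82, MMP13 0.35, MMP2 -3.82, PLAU 2.95, TFPI2 -2.84, TIMP2 0.39 and TIMP4 -1.42. The separate-channel values of MMP2, MMP3 and ADAMTS4 draw on the second slide and those of MMP13 on the first, where 1 dye or both were at background. They are no measured size. Normexp fitted on every spot turned MMP28 in the dose difference for the addition of Si306 (-0.048).

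For the number of member genes called, U87 2 Gy went from 8 to 1 with treat against 1.5-fold, 5 with normexp fitted on every spot (added after seeing the data) and 5 to 7 with single arrays left out (5 without the second array of U87 2 Gy). U87 10 Gy went from 7 to 1 with treat against 1.5-fold. U87 Si306 + 2 Gy went from 4 to 0 with treat against 1.5-fold, 2 with normexp fitted on every spot, 8 with median centring and 9 with the separate-channel model. U87 Si306 + 10 Gy went from 5 to 0 with treat against 1.5-fold, 2 with normexp fitted on every spot and 9 with median centring and the separate-channel model. The dose difference with PT alone went from 1 to 0 with treat against 1.5-fold, 2 with no background correction, median centring, the stricter filter and all 24 scans by label and 3 with every scan and a replicate block and every scan without the replicate number and 1 to 2 with single arrays left out. The dose difference for the addition of Si306 went from 3 to 0 with treat against 1.5-fold and normexp fitted on every spot and 7 with median centring.

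For the number of member genes that were DEGs, U87 2 Gy went from 0 to 3 with median centring and 4 with the separate-channel model. U87 10 Gy went from 0 to 1 with median centring and 5 with the separate-channel model. U87 Si306 + 2 Gy went from 0 to 1 with the series matrix values and the scanner's log ratio, 2 with median centring and 5 with the separate-channel model. U87 Si306 + 10 Gy went from 0 to 1 with the series matrix values, the scanner's log ratio and median centring and 5 with the separate-channel model.

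For the number of wider-list genes called, U87 2 Gy went from 30 to 2 with treat against 1.5-fold, 6 with normexp fitted on every spot and 46 with median centring. U87 10 Gy went from 33 to 3 with treat against 1.5-fold and 11 with normexp fitted on every spot. U87 Si306 + 2 Gy went from 34 to 2 with treat against 1.5-fold and 12 with normexp fitted on every spot. U87 Si306 + 10 Gy went from 30 to 4 with treat against 1.5-fold and 10 with normexp fitted on every spot. The dose difference with PT alone went from 15 to 0 with treat against 1.5-fold and 1 with normexp fitted on every spot and 7 to 16 with single arrays left out. The dose difference for the addition of Si306 went from 12 to 0 with treat against 1.5-fold, 1 with normexp fitted on every spot, 23 with all 24 scans by label and 28 with median centring and 4 to 13 with single arrays left out.

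For the number of wider-list genes that were DEGs, U87 2 Gy went from 0 to 1 with the series matrix values and the scanner's log ratio, 5 with median centring and 27 with the separate-channel model. U87 10 Gy went from 1 to 0 with the scanner software's log ratio, all 24 scans by label and the mean over a gene's probes, 3 with median centring and 27 with the separate-channel model. U87 Si306 + 2 Gy went from 1 to 5 with the series matrix values and the scanner's log ratio, 11 with median centring and 29 with the separate-channel model and 0 to 1 with single arrays left out. U87 Si306 + 10 Gy went from 0 to 4 with the series matrix values and the scanner's log ratio, 5 with median centring and 29 with the separate-channel model and 0 to 1 with single arrays left out.

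Replicate numbers did not pair the scans, since same-numbered scans of different configurations had deviations that correlated between -0.0855 and 0.0890 (30 pairs). With the replicate block on single scans, 3 members differed between the doses with PT alone, a count of 3 also without the number. The number of arrays limits all tests, MMP9 on both slides and MMP2 on the second lie near background, and the absence of a dye swap leaves dye and treatment confounded. Where a value changed with a setting, the cause was not tested.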
